A study of Homo sapiens with 36 samples.

Results

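The lysosome of SW1783 and HT29 cells was followed through 42 of its genes, out of 60675 in the table. They were taken by symbol from a list of lysosomal membrane proteins (5 genes), lysosomal proteases (11), glycosidases and sulfatases (13), lipid-handling proteins (6) and subunits of the proton pump (7). SW1783 is an established human astrocytoma line and HT29 an established human colorectal adenocarcinoma line, and bulk messenger RNA of both was sequenced after 24 h of exposure. Each line had 18 libraries in 6 groups of 3 replicates. In batch A the groups were a vehicle of 0.1% DMSO and 10 µM wortmannin, an inhibitor of phosphoinositide 3-kinases given as a positive control. In batch B they were a second vehicle of 0.1% DMSO and ACD, an extract in hot water of the monkshood Aconitum carmichaeli Debeaux, at 500 (high), 100 (medium) and 20 µg/mL (low). Sample labels name the extracted material as Aconiti Lateralis Radix Preparata, the prepared lateral root. The question of the study was whether ACD acts more on brain cells or on intestinal cells, and every treatment is compared here with the vehicle of its own batch. Each line stands for a single tumour, the extract is a mixture, and the labels do not say whether replicates were separate cultures, so that the p-values measure only the spread between these libraries.

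Lysosomes are acidic organelles that break down proteins, sugars, lipids and nucleic acids delivered by endocytosis and autophagy. Their lumen holds hydrolases with an acidic optimum, their membrane is lined with glycosylated proteins such as LAMP1 and LAMP2, and a vacuolar H+-ATPase (V-ATPase), made of a catalytic V1 sector and a membrane V0 sector, pumps in the protons. Many of their genes carry the palindrome CACGTG near the start of transcription, the core of the sites bound by TFEB, TFE3 and MITF, transcription factors that are held in the cytoplasm by mTORC1 signalling at the lysosomal surface and enter the nucleus on starvation. In nerve tissue the loss of single lysosomal enzymes causes storage diseases, and in epithelia and tumours cathepsins also act outside the cell.

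Total counts per library were 18863852 to 26436841 in SW1783, and HT29 had 15941250 to 33866636. The labels fitted the identity markers, with VIM at 4076 to 4975 CPM (counts scaled to a common library total) in SW1783 and at most 0.133 in HT29, and EPCAM at 452 to 585 CPM in HT29 and at most 0.202 in SW1783. The astrocyte markers GFAP and S100B were at or near 0 in SW1783, with at most 0.261 and 0.253 CPM. Replicate 2 of the high dose in HT29, with 15941250 counts, stood apart from its group. Its chi-square per degree of freedom, a measure of how far libraries differ, was 70.8 against replicate 1 and 71.5 against replicate 3. Between replicates 1 and 3 it was 10.1. The high-dose results of HT29 and the line differences that replicate 2 changed are also given without it. Mitochondrial ribosomal RNA, a sign of the make-up of a library, took 0.912 to 0.96% of counts in the batch B vehicle of SW1783, 3.01 to 3.33% at the low dose, 7.67 to 8.05% at the medium dose and 5.76 to 6.06% at the high dose. In HT29 it took 1.14 to 1.22% in vehicle, 0.982 to 1.14%, 1.96 to 2.18% and 11.3 to 12.5% with rising dose, and at most 1.4% with wortmannin in either line. Vehicle libraries of the same number in batch A and batch B were closer to each other (chi-square per degree of freedom 1.46 to 1.64) than any libraries within a group (1.68 or more), and whether they came from the same cultures is not stated. No member was called between the vehicles of batch A and B in either line, where 0.00348% of genes were called in SW1783 and 0% in HT29. For SW1783 DESeq2 gave 2 at an unadjusted p under 0.05, and edgeR called 0, and for HT29 DESeq2 gave 0 at an unadjusted p under 0.05, and edgeR called 0.

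The lysosomal genes were abundant in both lines before treatment. In TPM (counts divided by the length of the canonical transcript and scaled to a common sum), all 42 members of SW1783 and 41 of HT29 reached 1 TPM in the batch B vehicle, with a median over the 42 of 93.6 TPM in SW1783 and 38.3 TPM in HT29. Over all genes at 1 TPM or more the median was 17.7 and 15.7 TPM. CD63, a tetraspanin of late endosomes and lysosomes, led in both lines at 1571 ± 42.3 TPM in SW1783 and 766 ± 31.5 TPM in HT29 (SD, n = 3). In SW1783 it was followed by PSAP, the precursor of the saposins that present lipids to their hydrolases, at 518 ± 7.39, LAMP1 at 452 ± 9.51, CTSA, a carboxypeptidase that stabilises other enzymes, at 423 ± 6.45, and the aspartic protease CTSD at 350.0 ± 1.95 TPM. In HT29 the order after CD63 was CTSD at 669 ± 13.6, PSAP at 390.0 ± 2.18, the carboxypeptidase CTSZ at 358 ± 22.2 and LAMP1 at 291 ± 19.7 TPM. These leading genes did not overlap with their neighbours in the order between libraries, whereas 13 of the 41 neighbouring pairs of SW1783 and 26 of the 41 of HT29 did, most of them lower down. The lowest levels were those of the cysteine proteases CTSS (1.77 ± 0.11 TPM) and CTSK (2.65 ± 0.505 TPM) in SW1783 and of CTSK (1.59 ± 0.457 TPM) in HT29, apart from CTSF, for which HT29 had 0 counts.

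**Figure D1:**
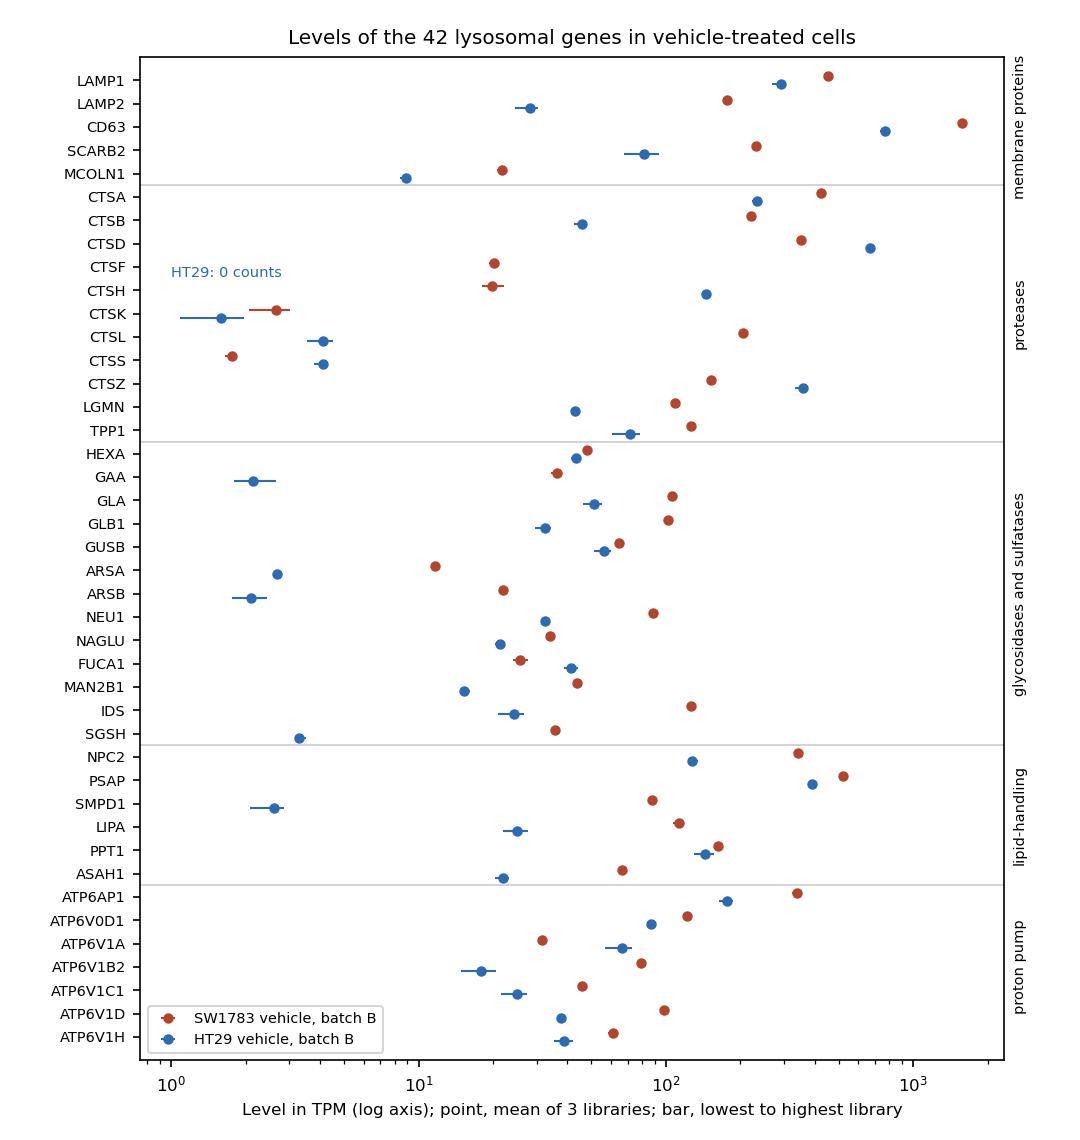
Level of each lysosomal gene in TPM on a log axis in the batch B vehicle of SW1783 (red) and HT29 (blue), with the mean of 3 libraries as a point, the lowest to highest library as a bar, and genes grouped by role. CD63 was highest in both lines, most genes lay further right in SW1783, and CTSD, CTSH, CTSZ, CTSS, FUCA1 and ATP6V1A lay further right in HT29.

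Most members were higher in SW1783 than in HT29. A gene was called when its adjusted p was under 0.05 and it differed by more than 1.5-fold. By this rule 26 of the 42 were higher in the SW1783 vehicle, where 27.2% of all genes tested were, and 6 were lower, against 23% of all genes. CTSF, a cysteine protease (GENCODE v44, GRCh38, chromosome 11, 66563464 to 66568879), had 357, 386 and 346 counts in the SW1783 vehicle libraries and 0 in those of HT29. Against a floor of 3 counts over the HT29 group it was at least 421-fold higher in SW1783. CTSL had 3174, 3171 and 3127 normalized counts in SW1783 and 70.6, 79.2 and 76.5 in HT29, a log2 difference of 5.37 ± 0.11 (SE; DESeq2 adjusted p too small for the software to write). SMPD1, the acid sphingomyelinase, had 1993, 1946 and 1993 against 60.8, 73.1 and 73.5, a log2 difference of 4.82 ± 0.12 (SE; DESeq2 adjusted p too small for the software to write). GAA, the acid glucosidase that degrades glycogen, had 1202, 1303 and 1313 against 81.5, 78.5 and 107, a log2 difference of 3.85 ± 0.13 (SE; DESeq2 adjusted p = 8.74e-201). None of these groups overlapped, and the HT29 libraries were low for all of them.

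The members that were lower in SW1783 were mostly proteases. CTSH, an aminopeptidase of the cathepsin family, had 360.4, 389 and 449 normalized counts in SW1783 and 3628, 3371 and 3358 in HT29, a log2 difference of -3.11 ± 0.087 (SE; DESeq2 adjusted p = 6.80e-277). CTSZ differed by -1.48 ± 0.046, CTSS by -1.46 ± 0.18 and CTSD by -1.19 ± 0.056 on the log2 scale. ATP6V1A, the catalytic subunit of the proton pump, had 1347, 1356 and 1347 against 3131, 3397 and 3584, a log2 difference of -1.32 ± 0.069 (SE; DESeq2 adjusted p = 7.39e-81), although its partner ATP6V1B2 in the same catalytic ring differed by 1.90 ± 0.082. FUCA1, the lysosomal fucosidase, was the other member called lower, at -0.93 ± 0.086. LAMP1 differed by 0.39 ± 0.042, inside the 1.5-fold limit, while LAMP2 and CTSB were higher in SW1783 by 2.39 ± 0.052 and 2.03 ± 0.047. The lines were grown in different media, which cannot be told apart from the line.

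For 27 of the 42 members a RefSeq promoter window (GRCh38.p14, 250 bases before to 50 after the start of transcription) was at hand, and the palindrome CACGTG, which reads the same on both strands, was searched in each. It was present in 9 of the 27 windows (33.3%), against 7.26% of 35116 windows of all genes. The longer TCACGTGA, which contains it, was present in 5 windows (18.5%), against 0.98%. The windows with CACGTG were those of LAMP1, CD63, MCOLN1, CTSA, CTSD, CTSF, GAA, NEU1 and ATP6V0D1. The members not matched were LAMP2, CTSB, CTSK, CTSS, LGMN, HEXA, ARSA, NAGLU, SGSH, PSAP, ASAH1, ATP6V1A, ATP6V1B2, ATP6V1C1 and ATP6V1H. The 250 bases before the start are printed 5′ to 3′ for LAMP1, whose window held 6 copies, for CTSD, CTSF and GAA, which were called in a treatment below, and for ATP6V0D1, which was lower at the high dose, with CACGTG in capitals.
LAMP1 (chr13:113296989-113297238, plus strand): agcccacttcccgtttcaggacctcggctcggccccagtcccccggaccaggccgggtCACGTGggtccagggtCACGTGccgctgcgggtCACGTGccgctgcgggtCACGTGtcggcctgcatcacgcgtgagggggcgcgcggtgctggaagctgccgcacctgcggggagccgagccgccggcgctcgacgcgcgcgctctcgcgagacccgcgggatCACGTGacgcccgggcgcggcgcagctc
CTSD (chr11:1763928-1764177, minus strand): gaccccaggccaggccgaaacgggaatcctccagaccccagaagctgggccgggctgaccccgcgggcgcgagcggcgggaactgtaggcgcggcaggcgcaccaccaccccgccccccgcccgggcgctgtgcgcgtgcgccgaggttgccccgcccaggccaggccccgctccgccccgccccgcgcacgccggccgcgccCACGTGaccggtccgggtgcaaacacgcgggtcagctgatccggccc
CTSF (chr11:66568607-66568856, minus strand): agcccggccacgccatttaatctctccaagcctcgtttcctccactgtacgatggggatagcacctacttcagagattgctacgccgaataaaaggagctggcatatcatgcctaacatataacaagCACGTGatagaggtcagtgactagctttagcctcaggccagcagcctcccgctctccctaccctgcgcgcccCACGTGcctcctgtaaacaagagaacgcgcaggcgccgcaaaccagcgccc
GAA (chr17:80101331-80101580, plus strand): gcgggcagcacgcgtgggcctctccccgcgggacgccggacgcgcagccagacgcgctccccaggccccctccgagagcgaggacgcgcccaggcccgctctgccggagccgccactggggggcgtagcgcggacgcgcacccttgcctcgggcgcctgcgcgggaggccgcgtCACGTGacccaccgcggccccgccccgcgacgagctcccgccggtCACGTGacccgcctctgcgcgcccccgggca
ATP6V0D1 (chr16:67481158-67481407, minus strand): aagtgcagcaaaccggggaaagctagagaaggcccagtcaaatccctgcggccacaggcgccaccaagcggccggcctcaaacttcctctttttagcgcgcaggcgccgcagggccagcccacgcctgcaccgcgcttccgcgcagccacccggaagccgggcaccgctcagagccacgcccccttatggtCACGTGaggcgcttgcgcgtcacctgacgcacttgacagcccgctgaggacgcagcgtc
In LAMP1 the copies began 192, 176, 159, 142 and 28 bases before the start, and another began 1 base before it and ran across it, so that it is not in capitals. The single copy of CTSD began 47 bases before the start, those of CTSF 123 and 51, those of GAA 76 and 31, and that of ATP6V0D1 59 bases before it. The RefSeq start used for a window can differ from the GENCODE end of the gene. The printed bases of CTSD and CTSF lie wholly inside the GENCODE span of the gene, and those of GAA and ATP6V0D1 reach into it. A match of letters describes the window and says nothing of what binds there.

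At the high dose of ACD the lysosomal genes of SW1783 were shifted upwards by small amounts, led by 2 cathepsins. The called members were CTSD and CTSH, both higher, which is 2 of 42 where 8.41% of all genes were called higher, and 0 were called lower where 9.28% of all genes were. With the adjusted p under 0.05 alone and no limit on the fold, 25 of the 42 were higher and 6 lower, beside 23.1% and 21.9% of all genes. Since the members are well counted, the like share was also taken over genes that averaged at least 100 normalized counts, where it was 62.5% higher and 15% lower among 40 members and 35.8% and 31.4% among 11263 genes. The median log2 fold change of the members was 0.17, and that of all genes tested -0.012. The summed normalized counts of the 42 members were 137265, 136823 and 139238 in vehicle and 159656, 161527 and 161443 at the high dose. In bulk RNA, fewer cells of a type and less RNA per cell cannot be told apart. Of the leukocyte markers in SW1783, AIF1, CD163 and ITGAM were at or near 0, and the summed level of all 6, mostly PTPRC and CSF1R, was 16.7 to 17.4 CPM in vehicle and 4.73 to 6.59 CPM at the high dose, moving the other way than the members. Mitochondrial ribosomal RNA was also higher in every high-dose library of SW1783 than in vehicle (5.76 to 6.06% against 0.912 to 0.96%). The part of either in the result was not tested.

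**Figure D2:**
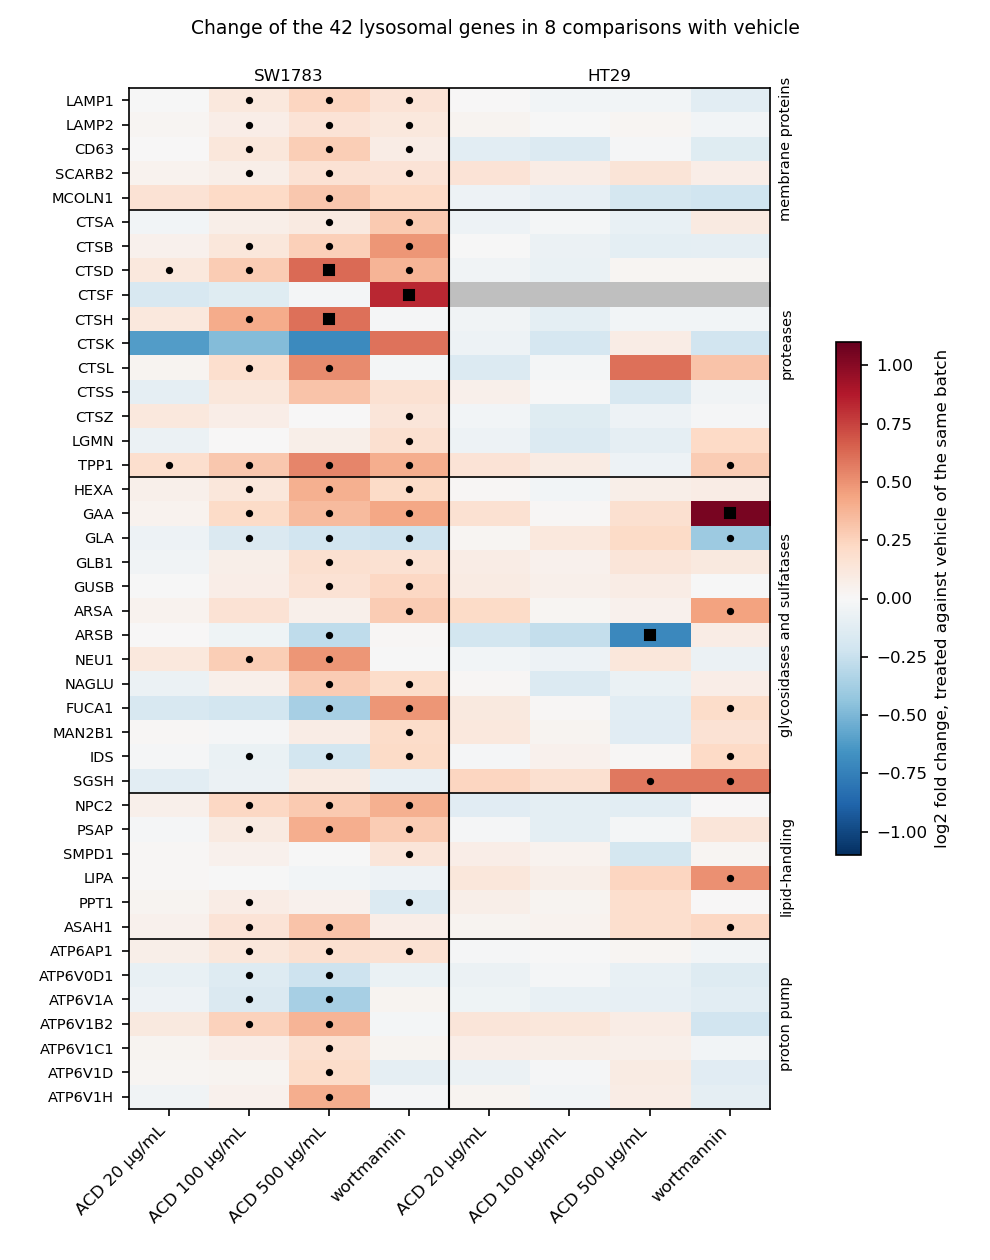
Heat map of the log2 fold change of the 42 lysosomal genes (rows, by role) in 8 comparisons with the vehicle of the same batch (columns), red for higher and blue for lower. Squares mark an adjusted p under 0.05 with more than 1.5-fold, dots an adjusted p under 0.05 with a smaller change, and grey a gene without counts. In SW1783 the dots fill most of the high-dose column, where 25 members were higher and 6 lower at the adjusted p alone, and in HT29 that column has 2 marks.

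Among the membrane proteins all 5 were higher at the adjusted p alone, by at most 0.30, with a median of 0.23 on the log2 scale. Of all genes averaging at least 100 normalized counts, 35.8% were higher by this rule. LAMP1, which forms much of the glycoprotein coat of the lysosome, had 10284, 10425 and 10842 normalized counts in vehicle and 12063, 12692 and 12309 at the high dose, a log2 fold change of 0.23 ± 0.032 (SE; DESeq2 adjusted p = 4.90e-12). LAMP2, its relative that also serves chaperone-mediated autophagy, had 10004, 9841 and 9884 in vehicle and 10939, 11091 and 10898 at the high dose, a log2 fold change of 0.15 ± 0.022 (SE; DESeq2 adjusted p = 8.71e-11). The groups did not overlap for either gene, and both changes stayed below 1.5-fold. MCOLN1, the calcium channel TRPML1, differed by 0.30 ± 0.089, CD63 by 0.27 ± 0.027 and SCARB2, the receptor that carries glucocerebrosidase to the lysosome, by 0.16 ± 0.027.

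The proteases held the largest rises. CTSD (GENCODE v44, GRCh38, chromosome 11, 1752752 to 1764573) had 6214, 6135 and 6225 normalized counts in vehicle and 9115, 9626 and 9764 at the high dose, and all high-dose libraries were above all vehicle libraries. Its log2 fold change was 0.62 ± 0.033 (SE; DESeq2 adjusted p = 1.58e-78). CTSH (chromosome 15, 78921058 to 78949574), less abundant, had 331, 358 and 412 in vehicle and 549.9, 549 and 579 at the high dose, again without overlap, with a log2 fold change of 0.61 ± 0.091 (SE; DESeq2 adjusted p = 1.41e-10). Both lay close to the 1.5-fold limit, and CTSH fell below it without vehicle replicate 1 (0.54) or high-dose replicate 3 (0.58). Just under the limit lay TPP1, a tripeptidyl peptidase, and CTSL. TPP1 had 3859, 3739 and 3763 in vehicle and 5285, 5375 and 5777 at the high dose, a log2 fold change of 0.53 ± 0.038 (SE; DESeq2 adjusted p = 2.28e-42). CTSL had 2915, 2923 and 2872 in vehicle and 4151, 4205 and 4163 at the high dose, a log2 fold change of 0.52 ± 0.042 (SE; DESeq2 adjusted p = 2.32e-34). CTSB, a cysteine protease that also acts outside cells, had 7002, 7264 and 7058 in vehicle and 8386, 8596 and 8647 at the high dose, a log2 fold change of 0.27 ± 0.029 (SE; DESeq2 adjusted p = 2.22e-18). CTSA differed by 0.098 ± 0.029. The other 5 did not pass the adjusted p, with log2 fold changes of 0.006 ± 0.048 for CTSZ, -0.020 ± 0.10 for CTSF, 0.064 ± 0.044 for the asparaginyl endopeptidase LGMN, 0.31 ± 0.21 for CTSS and -0.70 ± 0.36 for CTSK, which had 40, 28.9 and 42.7 in vehicle and 17.4, 27.9 and 22.4 at the high dose.

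The glycosidases and sulfatases, which take apart glycogen, glycolipids and glycosaminoglycans, went both ways. Of 13 genes, 6 were higher and 4 lower at the adjusted p alone, and the median log2 fold change was 0.095. These counts are near those of all genes averaging at least 100 normalized counts, of which 35.8% were higher and 31.4% lower. The sialidase NEU1 differed by 0.48 ± 0.037, HEXA, which cleaves GM2 ganglioside, by 0.39 ± 0.040, GAA by 0.35 ± 0.055, the heparan sulfate enzyme NAGLU by 0.28 ± 0.071, and the galactosidase GLB1 and the glucuronidase GUSB by 0.18 ± 0.042 and 0.16 ± 0.055. On the lower side FUCA1 had 448, 483 and 429 in vehicle and 386, 345 and 329 at the high dose, a log2 fold change of -0.36 ± 0.099 (SE; DESeq2 adjusted p = 7.68e-04). ARSB, which removes sulfate from dermatan and chondroitin sulfate, had 907, 887 and 956 in vehicle and 818, 693 and 761 at the high dose, a log2 fold change of -0.28 ± 0.068 (SE; DESeq2 adjusted p = 1.38e-04). Neither overlapped between the groups. The galactosidase GLA and the iduronate sulfatase IDS differed by -0.21 ± 0.055 and -0.20 ± 0.025. ARSA, MAN2B1 and SGSH did not pass, at 0.054 ± 0.10, 0.082 ± 0.053 and 0.095 ± 0.066.

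Of the 6 lipid-handling genes 3 were higher at the adjusted p alone and none lower. Beside this and the counts by promoter below, 35.8% of all genes averaging at least 100 normalized counts were higher and 31.4% lower. PSAP differed by 0.40 ± 0.030, the acid ceramidase ASAH1 by 0.31 ± 0.053 and NPC2, which hands cholesterol to the membrane transporter NPC1, by 0.29 ± 0.039. The thioesterase PPT1, SMPD1 and the acid lipase LIPA lay at 0.048 ± 0.033, -0.0012 ± 0.046 and -0.028 ± 0.042 and did not pass. The proton pump was divided between its subunits. ATP6V1A, which binds and cleaves ATP, had 1237, 1250.2 and 1237 in vehicle and 950.4, 1002 and 941 at the high dose, with all high-dose libraries below all vehicle libraries and a log2 fold change of -0.36 ± 0.057 (SE; DESeq2 adjusted p = 7.72e-10). ATP6V1B2, the other subunit of the catalytic ring, had 1938, 1954 and 1951 in vehicle and 2543, 2538 and 2485 at the high dose, a log2 fold change in the other direction of 0.37 ± 0.040 (SE; DESeq2 adjusted p = 5.46e-20). ATP6V1H, a regulator of the V1 sector, differed by 0.40 ± 0.056, ATP6V1D by 0.21 ± 0.049, ATP6V1C1 by 0.18 ± 0.040, the accessory protein ATP6AP1 by 0.17 ± 0.035 and ATP6V0D1, which links both sectors, by -0.23 ± 0.049. Of the 9 members with CACGTG in the window, 7 were higher and 1 lower at the adjusted p alone, with a median log2 fold change of 0.27. Of the 18 without it 9 were higher and 4 lower, with a median of 0.12, and the difference was not tested. With wortmannin in SW1783 the medians with and without it were 0.22 and 0.14. In HT29 they lay the other way, at -0.023 and 0.016 with the high dose and -0.086 and 0.047 with wortmannin.

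In normalized counts the shift in SW1783 grew with the dose. Mean summed normalized counts of the members were 137775 ± 1286 in vehicle (SD, n = 3), 139952 ± 1309 with the low dose, 147507 ± 1131 with the medium dose and 160875 ± 1057 with the high dose. The sums of vehicle and low dose overlapped between libraries. As a share of total counts the members took 0.677 to 0.686% in vehicle, 0.670 to 0.681% at the low and 0.672 to 0.677% at the medium dose. Only the high dose, at 0.727 to 0.741%, stood above vehicle on that scale. At the medium dose no member was called, against 3.81% of all genes, and 18 were higher and 4 lower at the adjusted p alone, against 15.1% and 14.5%. Without a single library the sum of both counts fell to 14 in the lowest fits, those without vehicle replicate 2 or medium-dose replicate 2. At the low dose no member was called, against 0.103% of all genes, and 2 were higher at the adjusted p alone, TPP1 at 0.18 ± 0.039 (SE; DESeq2 adjusted p = 2.73e-04) and CTSD at 0.11 ± 0.033 (SE; DESeq2 adjusted p = 0.0251), against 2.24% of all genes. Of the members without a call, DESeq2 gave 25 at an unadjusted p under 0.05, and edgeR called 0 at the medium dose, and DESeq2 gave 5 at an unadjusted p under 0.05, and edgeR called 0 at the low dose. Between the high and the medium dose no member passed 1.5-fold, against 9.86% of all genes, DESeq2 gave 24 at an unadjusted p under 0.05, and edgeR called 0, and 20 were higher and 3 lower at the high dose at the adjusted p alone, against 20.3% and 19.1%. The 3 doses share their vehicle libraries, so that their changes are not independent.

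Group means showed the order by gene. In normalized counts from vehicle over low and medium to high dose, CTSD stood at 6191, 6693, 7502 and 9502, CTSH at 367, 397, 486 and 559 and TPP1 at 3787, 4299, 4659 and 5479. CTSB stood at 7108, 7356, 7767 and 8543 and LAMP2 at 9909.8, 10055, 10400.2 and 10976, and ATP6V1A went down, at 1241, 1194, 1112 and 964. Of the 40 members that averaged at least 100 normalized counts, 18 had means that were higher at each step of the dose (45%), beside 22.5% of all genes of that count, and 5 had means that were lower at each step, beside 20%. In HT29, 2 of 38 members were higher at each step (5.26%, beside 11.3% of genes) and 4 lower (10.5%, beside 6.44%). Without high-dose replicate 2 of HT29 these were 1 (2.63%, beside 15.7%) and 8 (21.1%, beside 11.8%), a count made after the values were seen.

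**Figure D3:**
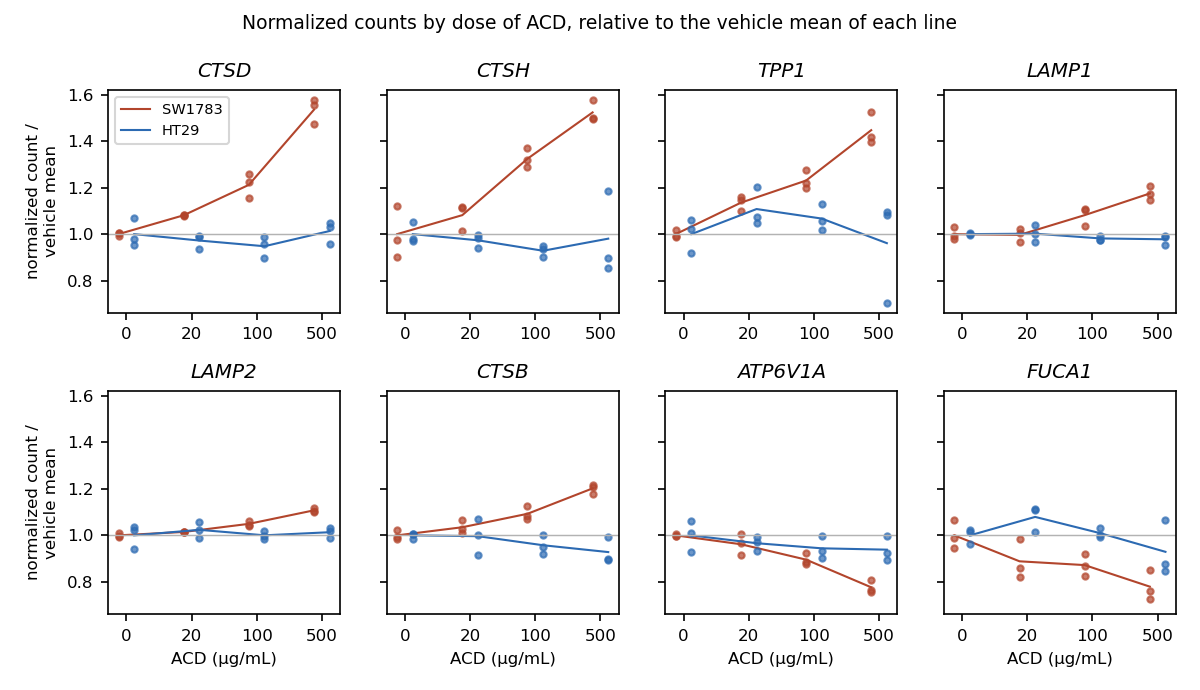
Normalized counts of 8 lysosomal genes at 0, 20, 100 and 500 µg/mL ACD, divided by the vehicle mean of the line, with a point for each library and a line through the means of 3 (red SW1783, blue HT29). In SW1783 the means of CTSD, CTSH, TPP1, CTSB and LAMP2 were higher at each dose and those of ATP6V1A and FUCA1 lower. CTSD reached 9115 to 9764 counts in SW1783 at 500 µg/mL. In HT29 the means of CTSB and ATP6V1A were lower at each dose, and none of the 8 genes had higher means at each. TPP1 was low in 1 HT29 library at 500 µg/mL (2130.1 normalized counts).

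In HT29 few lysosomal genes differed from vehicle at the high dose of ACD, where mitochondrial ribosomal RNA took 11.3 to 12.5% of counts against 1.14 to 1.22% in vehicle. Of the 41 members tested (CTSF had no counts), 0 were called higher and 1 lower, against 1.35% and 1.75% of all genes, and at the adjusted p alone 1 was higher and 1 lower, against 4.34% and 3.92%. The median log2 fold change of the members was 0.019, and that of all genes tested 0.011. The called gene was ARSB (chromosome 5, 78777209 to 78986087), a weakly expressed sulfatase in this line. It had 113, 118 and 138 normalized counts in vehicle and 87.3, 47.9 and 82.9 at the high dose, with replicate 2 lowest and no overlap. Its log2 fold change was -0.71 ± 0.20 (SE; DESeq2 adjusted p = 0.00621). Without high-dose replicate 2 it was -0.54 ± 0.20 (DESeq2 adjusted p = 0.0374), below 1.5-fold, and without vehicle replicate 3 it was -0.62 with a DESeq2 adjusted p = 0.0721. The only member higher at the adjusted p alone was SGSH, the sulfamidase of heparan sulfate breakdown, with 113, 109.8 and 101 in vehicle and 169, 132 and 177 at the high dose and a log2 fold change of 0.58 ± 0.17 (SE; DESeq2 adjusted p = 0.0146).

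Several of these values rested on replicate 2 of the high dose. The summed normalized counts of the members at the high dose were 106807, 118061 and 107256, against 113392, 107974 and 109683 in vehicle. In normalized counts the high dose gave 79.7, 202 and 101 for CTSL, with 76.8, 86.3 and 83 in vehicle, and 3272, 2130.1 and 3307 for TPP1, with 2774, 3086 and 3202 in vehicle, so that replicate 2 lay far above its group for the former and far below it for the latter. Fitted without this library, 1 member was higher and 6 were lower at the adjusted p alone, against 10.3% and 7.93% of all genes in that fit. SGSH was then at 0.68 ± 0.18, above 1.5-fold, and the lower ones were ARSB, CD63 (-0.27 ± 0.082), NPC2 (-0.26 ± 0.081), FUCA1 (-0.22 ± 0.076), CTSZ (-0.20 ± 0.054) and CTSH (-0.19 ± 0.058). With all 3 libraries the genes that led in SW1783 had log2 fold changes of 0.020 ± 0.066 for CTSD, with a 95% interval of -0.11 to 0.15, and -0.031 ± 0.11 for CTSH, with -0.25 to 0.19. LAMP1, LAMP2, CTSB and ATP6V1A were at -0.033 ± 0.041, 0.019 ± 0.057, -0.11 ± 0.076 and -0.094 ± 0.073, none past the adjusted p. Precision was lower than in SW1783, with a median SE over members at 100 or more counts of 0.10 against 0.043 on the log2 scale.

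At the medium and low doses no member of HT29 was called. All genes gave 0.793% at the medium dose, where DESeq2 gave 0 at an unadjusted p under 0.05, and edgeR called 0, and 0.288% at the low dose, where DESeq2 gave 1 at an unadjusted p under 0.05, and edgeR called 0. The adjusted p alone was passed by no member either, against 1.99% and 0.552% of all genes. Between high and medium dose no member was called, against 0.7% of all genes, where DESeq2 gave 3 at an unadjusted p under 0.05, and edgeR called 0. ARSB had 107, 105 and 108 normalized counts at the low and 105, 93.2 and 110.5 at the medium dose, all below the vehicle libraries, with log2 fold changes of -0.20 ± 0.18 and -0.26 ± 0.19 that did not pass. CTSD had 15624, 16494 and 16484 at the low and 15979, 14981 and 16418 at the medium dose, against 17786, 16333 and 15862 in vehicle, and did not pass at either.

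Whether the lines differed in their response was tested as an interaction, the log2 fold change of SW1783 less that of HT29. Larger and smaller refer to this signed value in all line differences, so that a deeper fall in SW1783 counts as smaller. At the high dose 1 member was called with a larger change in SW1783, CTSH at 0.60 ± 0.14 (SE; DESeq2 adjusted p = 1.17e-04), against 7.1% of all genes, and none with a smaller one, against 8.07%. At the adjusted p alone 12 were larger and 4 smaller, against 13.1% and 15.7%. CTSD differed between the lines by 0.56 ± 0.073 (SE; DESeq2 adjusted p = 5.01e-13) and TPP1 by 0.54 ± 0.16 (SE; DESeq2 adjusted p = 0.00354). MCOLN1, PSAP, NPC2 and CTSB differed by 0.45 ± 0.13, 0.38 ± 0.078, 0.37 ± 0.11 and 0.34 ± 0.069, and LAMP1 by 0.22 ± 0.050. The smaller ones were SGSH at -0.55 ± 0.14, GLA at -0.45 ± 0.16, ATP6V1A at -0.31 ± 0.080 and IDS at -0.26 ± 0.092. LAMP2 gave 0.087 ± 0.043, with a 95% interval of 0.0022 to 0.17, and did not pass. Its SE is smaller than that of LAMP2 in HT29 alone, so the interval may be too narrow. The SEs of CTSB and SGSH are likewise smaller than in HT29 alone, so their p-values may be too small. CTSH lay just above 1.5-fold, and the fits without single libraries of either line gave it 0.51 to 0.75, with adjusted p of at most 0.00181 (DESeq2). It was under the limit without vehicle replicate 1 or 2 or high-dose replicate 3 of SW1783, and without vehicle replicate 1 or high-dose replicate 1 or 3 of HT29. Without high-dose replicate 2 of HT29, the line difference was -0.22 ± 0.087 for GLA, whose high-dose libraries in HT29 had 795, 1255 and 788 normalized counts against 801, 803 and 843 in vehicle, and 0.36 ± 0.083 for TPP1. In that fit CTSH was at 0.75 ± 0.089 and SGSH, then also called, at -0.64 ± 0.15, against 7.19% and 8.7% of all genes, and 16 members were larger and 4 smaller at the adjusted p alone, against 15.8% and 18.7%. At the medium dose no member was called, against 3.34% of all genes, DESeq2 gave 8 at an unadjusted p under 0.05, and edgeR called 0, and 4 were larger in SW1783 at the adjusted p alone, against 4.26%. These were CTSH at 0.49 ± 0.14, CTSD at 0.33 ± 0.073, NPC2 at 0.31 ± 0.11 and NEU1 at 0.31 ± 0.10.

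Wortmannin, which also inhibits the lipid kinase VPS34 that feeds the endosomal and autophagic routes to the lysosome, was also accompanied by small upward shifts in SW1783, led by CTSF. This gene was the 1 member called higher, against 1.74% of all genes, and none was called lower, against 0.965%. CTSF had 338, 355 and 375 normalized counts in vehicle and 576, 636 and 679.6 with wortmannin, without overlap, a log2 fold change of 0.83 ± 0.095 (SE; DESeq2 adjusted p = 1.48e-16). At the adjusted p alone 24 of 42 were higher and 2 lower, against 13.3% and 19.2% of all genes. The median log2 fold change was 0.16 for the members and -0.0022 for all genes tested, and the summed normalized counts went from 159964 ± 1315 to 181373 ± 2384 (SD, n = 3). Among the proteases CTSB had 8076, 8207 and 8162 in vehicle and 11201, 11329.7 and 11658 with wortmannin, a log2 fold change of 0.48 ± 0.024 (SE; DESeq2 adjusted p = 2.55e-84). TPP1 and CTSD differed by 0.40 ± 0.031 and 0.38 ± 0.029, and CTSA, LGMN and CTSZ by 0.29 ± 0.030, 0.18 ± 0.047 and 0.13 ± 0.043. CTSH and CTSL, higher with ACD, were at -0.012 ± 0.097 and -0.023 ± 0.035 with wortmannin and did not pass.

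FUCA1, lower with the high dose of ACD, had 540.1, 509 and 524 in vehicle and 749, 756 and 692 with wortmannin, a log2 fold change of 0.48 ± 0.080 (SE; DESeq2 adjusted p = 2.24e-08). GAA differed by 0.42 ± 0.052, ARSA by 0.28 ± 0.086 and IDS by 0.21 ± 0.022. At the adjusted p alone 9 of the 13 glycosidases and sulfatases were higher, with GLA alone lower at -0.23 ± 0.057. Of all genes averaging at least 100 normalized counts, 15.5% were higher with wortmannin and 23.7% lower. NPC2 and PSAP differed by 0.39 ± 0.039 and 0.28 ± 0.023, and PPT1 was lower by -0.15 ± 0.036. The membrane proteins LAMP1 and LAMP2 differed by 0.15 ± 0.023 (SE; DESeq2 adjusted p = 3.31e-10) and 0.12 ± 0.022 (SE; DESeq2 adjusted p = 3.90e-07). In the proton pump only the accessory protein ATP6AP1 passed the adjusted p, at 0.16 ± 0.032, while ATP6V1A had 1482, 1501 and 1518 in vehicle and 1495, 1537 and 1574 with wortmannin and a log2 fold change of 0.033 ± 0.051. The values for ACD and for wortmannin are set side by side without a test, since the vehicles of both batches may not be independent.

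In HT29 the members that differed with wortmannin were mostly enzymes of sugar and lipid breakdown. GAA (chromosome 17, 80101533 to 80119881) was called, 1 of 41 members higher, against 1.97% of all genes, and none lower, against 0.768%. It had 81, 84.9 and 85.6 in vehicle and 197, 163 and 159 with wortmannin, without overlap, a log2 fold change of 1.04 ± 0.18 (SE; DESeq2 adjusted p = 5.99e-07). At the adjusted p alone 8 were higher and 1 lower, against 8.06% and 11.7% of all genes, a count of 9 that was 4 without wortmannin replicate 2. SGSH had 104, 104 and 85.6 in vehicle and 138, 142 and 163 with wortmannin, a log2 fold change of 0.58 ± 0.19 (SE; DESeq2 adjusted p = 0.0127), just short of 1.5-fold, and edgeR and the fit with a low-count filter called it at 0.59 and 0.59. LIPA, which hydrolyses cholesteryl esters, had 689.9, 724 and 697 in vehicle and 1011, 1002 and 987 with wortmannin, a log2 fold change of 0.51 ± 0.077 (SE; DESeq2 adjusted p = 4.20e-09). ARSA, TPP1, ASAH1, IDS and FUCA1 differed by 0.45 ± 0.16, 0.28 ± 0.064, 0.23 ± 0.081, 0.22 ± 0.063 and 0.20 ± 0.075, and GLA was lower, by -0.40 ± 0.087. The leading SW1783 genes CTSB and CTSD were at -0.098 ± 0.061 and 0.017 ± 0.061, LAMP1 and LAMP2 at -0.11 ± 0.051 and -0.034 ± 0.064, and ATP6V1A at -0.12 ± 0.057, none past the adjusted p. Without vehicle replicate 1 of HT29, LAMP1 and ATP6V1A were lower at a DESeq2 adjusted p = 0.0196 and 0.0181. The median over the members was 0.0068, against -0.0063 over all genes tested.

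The interaction of line and wortmannin called GAA and SGSH, both with the smaller change in SW1783, against 2.54% of all genes, and no member with the larger one, against 0.877%. GAA differed by -0.64 ± 0.13 (SE; DESeq2 adjusted p = 4.04e-05) and SGSH by -0.69 ± 0.14 (SE; DESeq2 adjusted p = 2.72e-05). Both SEs are smaller than those of the same genes in HT29 alone, so these p-values may be too small. For GAA the change was upwards in both lines, and without wortmannin replicate 1 of HT29 the difference was -0.53, under 1.5-fold. SGSH in SW1783 had 934, 879 and 893 in vehicle and 828, 848 and 861 with wortmannin, a log2 fold change of -0.092 ± 0.067 that did not pass. At the adjusted p alone 8 members had the larger and 4 the smaller change in SW1783, against 5.6% and 10%. CTSB differed between the lines by 0.56 ± 0.047, MCOLN1 by 0.42 ± 0.15, NPC2 by 0.36 ± 0.093, CTSD by 0.34 ± 0.063 and LAMP1 by 0.24 ± 0.045, and LIPA in the other direction by -0.58 ± 0.065. The SEs of CTSB, LAMP1 and LIPA are also smaller than in HT29 alone. Without vehicle replicate 1 of HT29 the 12 members at the adjusted p alone became 19. The share of all genes in that fit is not given, so this count cannot be set against it.

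**Figure D4:**
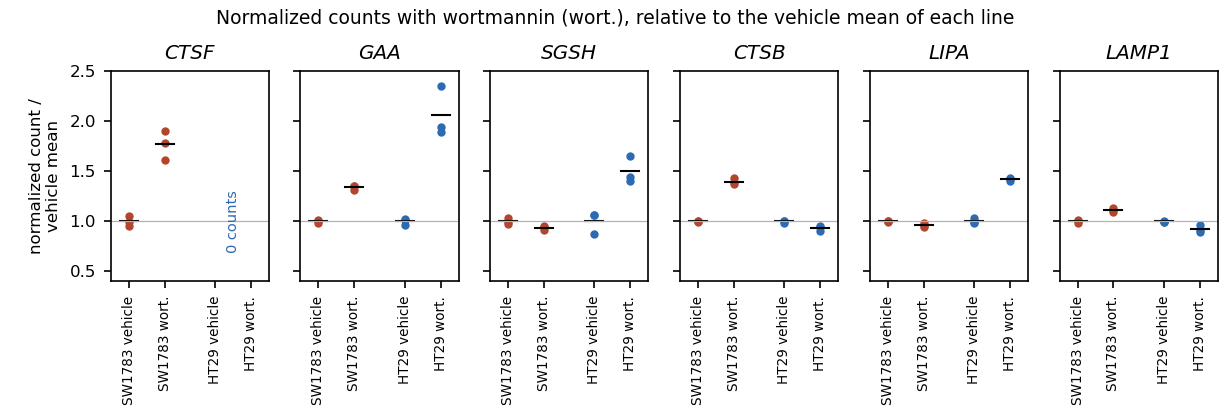
Normalized counts of 6 lysosomal genes in batch A, divided by the vehicle mean of the line, with a point for each library and a bar for the mean of 3 (red SW1783, blue HT29, wort. for 10 µM wortmannin). CTSF and CTSB were higher with wortmannin in SW1783, GAA in both lines and more so in HT29 (159 to 197 against 81.0 to 85.6 normalized counts), and SGSH and LIPA in HT29.

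Among genes averaging at least 100 normalized counts, the median log2 fold change at the high dose in SW1783 was 0.17 for 40 members and 0.024 for all, with wortmannin 0.15 and -0.020, and at the medium dose 0.070 and 0.003. In HT29 the like values were 0.016 and 0.032 at the high dose and 0.0055 and -0.019 with wortmannin.

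**Figure D5:**
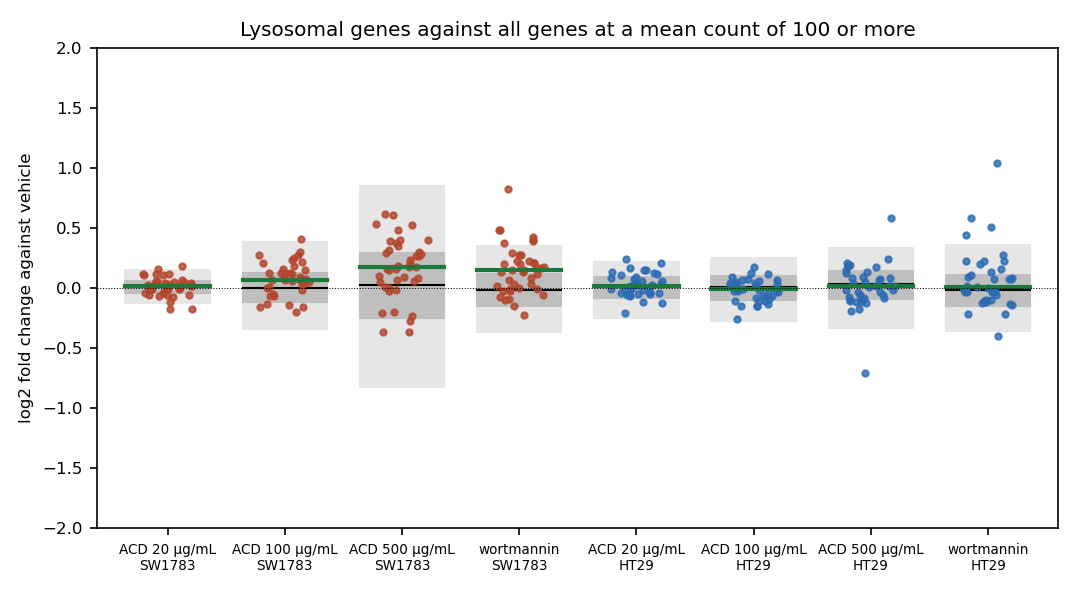
Log2 fold change against vehicle of the lysosomal genes averaging at least 100 normalized counts (points, red SW1783, blue HT29) and their median (green line), over the 25th to 75th percentile (dark grey), the 5th to 95th percentile (light grey) and the median (black line) of all genes of that count. The green line lay above the black one at 100 and 500 µg/mL ACD and with wortmannin in SW1783, and on or near it in HT29.

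The wider lysosomal pathway in SW1783 at the high dose held larger changes than any of the 42 genes. Of 8 genes that TFEB is known to induce in a feedback on mTORC1 and autophagy, 6 were called higher and 0 lower, against 8.41% and 9.28% of all genes, with a median log2 fold change of 0.97 beside -0.012 for all genes tested. The list was chosen with earlier results known, and its count is a description. SQSTM1, the autophagy receptor p62, had 9745, 10497 and 10726 normalized counts in vehicle and 39111, 40446 and 41319 at the high dose, a log2 fold change of 1.96 ± 0.031 (SE; DESeq2 adjusted p too small for the software to write). WIPI1, which binds the forming autophagosome, had 506, 501 and 494 and 1557, 1460.4 and 1581, a log2 fold change of 1.61 ± 0.065 (SE; DESeq2 adjusted p = 5.35e-133). FNIP1 and FLCN, partners that act on the Rag GTPases, rose by 1.02 ± 0.045 and 0.82 ± 0.061, and GPNMB, a glycoprotein of lysosome-related organelles, by 0.91 ± 0.070. The Rag GTPase RRAGD, at low counts, had 11.3, 9.64 and 6.24 and 88, 111 and 100.1, a log2 fold change of 3.46 ± 0.38 (SE; DESeq2 adjusted p = 8.24e-19). In HT29 no gene of this list was called at the high dose, where only 1.35% of all genes were called higher and 1.75% lower. SQSTM1 was there at 0.36 ± 0.054, WIPI1 at 0.070 ± 0.16 and FLCN at -0.36 ± 0.096. With wortmannin none was called in either line, against 1.74% of all genes higher and 0.965% lower in SW1783 and 1.97% and 0.768% in HT29. SQSTM1 in SW1783 was at -0.14 ± 0.052 with wortmannin. The factors themselves were TFEB at -0.41 ± 0.11, MITF at -0.41 ± 0.074 and TFE3 at 0.27 ± 0.040 at the high dose in SW1783, past the adjusted p and under 1.5-fold, and TFEC was too weakly counted to be tested.

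Of 12 other lysosomal membrane proteins and exporters, 5 were called higher at the high dose in SW1783 and 0 lower, against the same 8.41% and 9.28% of all genes. NPC1, the cholesterol transporter that takes over from NPC2, had 4159, 3936 and 3899.6 normalized counts in vehicle and 9231, 9116 and 9362 at the high dose, a log2 fold change of 1.21 ± 0.033 (SE; DESeq2 adjusted p = 1.28e-285), where NPC2 differed by 0.29 ± 0.039. CLCN7, a chloride and proton exchanger, rose by 0.84 ± 0.044, the cystine exporter CTNS by 0.80 ± 0.097 and the sialic acid exporter SLC17A5 by 0.62 ± 0.091. LAMP3, an inducible relative of LAMP1, had 1.02, 5.26 and 3.12 and 61.4, 94.6 and 84.2, a log2 fold change of 4.64 ± 0.55 (SE; DESeq2 adjusted p = 4.74e-16) from low counts. Of 15 other V-ATPase subunits, ATP6V1G1 rose by 0.63 ± 0.057 and ATP6V0D2, at 1.02, 8.76 and 7.29 and 112, 112 and 125, by 4.32 ± 0.43, none was called lower, and 7 were higher and 4 lower at the adjusted p alone, against 23.1% and 21.9% of all genes. Of 10 genes of the mTORC1 scaffold on the lysosome only RRAGC was called, at 1.06 ± 0.048. In HT29 the high dose gave 1 call over these lists, ATP6V1B1, against 1.35% of all genes called higher and 1.75% lower. This pump subunit, found in acid-secreting epithelia, had 559, 481 and 486 in vehicle and 282, 313 and 318 at the high dose. Its log2 fold change was -0.74 ± 0.11 (SE; DESeq2 adjusted p = 5.79e-09). With wortmannin it rose by 0.73 ± 0.090.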

How the data were processed

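Bulk messenger RNA of SW1783 and HT29 cells was sequenced in 36 libraries, 3 for each of 12 groups. The values are RSEM expected counts per gene, deposited by the authors in one table of 60675 genes, and 8.84% of them were not whole numbers, since RSEM splits reads that map to several genes. The submitters' processing notes name FastQC 0.11.9, Trim Galore 0.6.5, STAR 2.7.3a and RSEM 1.3.3, with no order given. Per the methods, trimmed reads were aligned with STAR to a genome named there as GRCh38 (hg19), names of different builds, and quantified per gene with RSEM, and the versions of Trim Galore and STAR given there differ from those of the notes. Gene positions and lengths were taken from GENCODE 44 on GRCh38 by symbol and promoter windows from RefSeq on GRCh38.p14. The labels give the vehicle as 0.1% DMSO, while the methods of the study describe PBS with a higher share of DMSO.

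Expected counts were rounded and tested gene by gene, two-sided, in DESeq2 1.42.0 (Wald test, R 4.3.3), with the treatment group as the only term and Benjamini-Hochberg adjustment over all genes tested. For the ACD doses the 12 libraries of batch B of a line were fitted together, and for wortmannin the 6 of batch A. Line differences were an interaction of line and treatment, fitted on both lines with a single estimate of the spread per gene. HT29 libraries spread more than those of SW1783, so the SEs and p-values of line differences may be too small. A gene was called at an adjusted p under 0.05 and a change above 1.5-fold, and the adjusted p alone is given as a second rule. Normalized counts are counts divided by the DESeq2 size factors of that fit. The fits were tested on simulated data with known changes. The alternatives were edgeR 4.0.16 (quasi-likelihood), TMM size factors, a filter of 10 counts in 3 libraries, other sets of libraries in the fit, no fold limit, a replicate block and leaving out each library.

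The members and the other gene lists were chosen with earlier results of these data known. Genes given library by library are the called members with the largest changes, averaging at least 100 normalized counts and without overlap between libraries, up to 5 of each sign at the high dose, 3 for other treatments and 4 for line comparisons, with LAMP1, LAMP2, CTSD, CTSB and ATP6V1A always named, and up to 2 of each sign from each other list at the high dose. The named members under 1.5-fold, the other-list genes beyond 2 a list, and the rule of the adjusted p alone were chosen after their values were seen. Some members overlap other genes on the same strand (MCOLN1, CTSD, HEXA, GLB1, NAGLU, MAN2B1, IDS and PSAP), and IDS also has a pseudogene copy, so that their counts may hold shared reads.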

Additional observations from a re-analysis of the deposited data

Results flagged for a closer look

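The response to a treatment differed between the lines, by the interaction test of DESeq2 and by more than 1.5-fold, for 3 lysosomal genes. Of all genes, 7.1% were called with a larger and 8.07% with a smaller signed change in SW1783 at the high dose. With wortmannin these shares were 0.877% and 2.54%. At the high dose of ACD, CTSH had a change that was 0.60 larger in SW1783 on the log2 scale, with 0.61 ± 0.091 in SW1783 and -0.031 ± 0.11 in HT29. With wortmannin, the difference was -0.64 for GAA, with 0.42 ± 0.052 in SW1783 and 1.04 ± 0.18 in HT29, and -0.69 for SGSH, with -0.092 ± 0.067 and 0.58 ± 0.19. In HT29 both GAA and SGSH had about 100 normalized counts or fewer in vehicle, against 1249.7, 1294 and 1280.5 for GAA in SW1783. Over the alternative fits the difference was 0.51 to 0.75 for CTSH and -0.69 to -0.53 for GAA, in part under 1.5-fold. For SGSH it was -0.75 to -0.61.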

How the results depend on the processing

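Without a limit on the fold, the members past the adjusted p were 31 at the high dose, 22 at the medium and 2 at the low dose in SW1783, 23 between high and medium dose and 26 with wortmannin, 2 at the high dose and 9 with wortmannin in HT29, and 16, 4 and 12 for the line differences at the high dose, the medium dose and with wortmannin. By edgeR 2 members were called with wortmannin in SW1783 (CTSF and CTSK at 0.60), 2 with wortmannin in HT29 (GAA and SGSH) and 2 in the line difference at the high dose (CTSH and CTSD at 0.59). Over all genes edgeR called 483 higher and 204 lower of 15894 in the first of these. It called 360 and 108 of 14928 in the second, and 1439 and 1321 of 17913 in the third. With the low-count filter 2 were called with wortmannin in HT29, beside 282 genes higher and 99 lower of 13371. With the 6 libraries compared alone, ARSB lost its call at the high dose in HT29 (-0.73, DESeq2 adjusted p = 0.155), which left 0 members called and 0 at the adjusted p alone. With all 18 libraries of the line 2 were called there (ARSB and SGSH), beside 218 genes higher and 327 lower of 15966. In the like fit of SW1783, 5 members passed the adjusted p alone at the low dose. The cause of these moves was not tested.

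Leaving out each library in turn gave 1 to 2 called members at the high dose in SW1783 and 30 to 31 at the adjusted p alone, 0 and 14 to 17 at the medium, 0 and 1 to 2 at the low dose, 0 and 17 to 22 between high and medium dose, and 1 and 24 to 26 with wortmannin. The lowest medium-dose count was without vehicle or medium-dose replicate 2. In HT29 the ranges were 0 to 2 and 1 to 7 at the high dose and 1 to 2 and 4 to 11 with wortmannin. Called members at the HT29 high dose were 2 without vehicle or high-dose replicate 1 and 0 without vehicle replicate 3, and with wortmannin 2 without vehicle replicate 1 or 2 or wortmannin replicate 1. For the line differences they were 0 to 2 and 14 to 20 at the high dose, 0 and 1 to 4 at the medium dose, and 1 to 3 and 8 to 19 with wortmannin. The vehicle comparison of the lines gave 31 to 33. Shares of all genes are given above only for the fits without high-dose replicate 2 of HT29, so the other counts cannot be set against them.

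Replicate numbers did not clearly pair the libraries. Correlations of deviations between libraries of the same number were -0.13 to 0.24 in batch B and 0.013 to 0.055 in batch A of SW1783, and -0.52 to 0.38 and -0.057 to 0.14 in HT29. Between libraries of other numbers they were -0.19 to 0.11 and -0.064 to 0.046 in SW1783, somewhat lower, and -0.54 to 0.56 and -0.17 to 0.14 in HT29. With the replicate block the members at the adjusted p alone were 4 with wortmannin in HT29, and 2 and 7 for the line differences at the medium dose and with wortmannin, and 3 were called in the last. The other counts of the block were within 1.5 times those reported.

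For the single genes named, 591 of 604 alternative values stayed on their side of the threshold, which is that of a call, and 13 fell below it. The 13 concerned CTSH, ARSB, GAA and SLC17A5, the last without high-dose replicate 2 of SW1783 (0.58). Among changes called in the main or the alternative fit, 0 changed sign. Small uncalled changes in HT29 did change sign, such as those at the high dose of CTSD (-0.015 to 0.069) and LAMP2 (-0.019 to 0.046). At the adjusted p alone 3 values came to pass, all with wortmannin in HT29 and under 1.5-fold: LAMP1 with all 18 libraries of the line (DESeq2 adjusted p = 0.0186), and LAMP1 and ATP6V1A without vehicle replicate 1. 2 no longer passed, both ARSB at the high dose in HT29. Members with about 100 normalized counts in HT29 (ARSB, SGSH, GAA, CTSL) have SEs of 0.2 or so on the log2 scale, so that small changes of these genes could not be detected there, and the wider spread at the high dose of HT29 limits all comparisons with it.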

Other observations

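Other lysosomal hydrolases and their cofactors, outside the 42 genes, had no call in SW1783 at the high dose. Of the 19 tested, 9 were higher and 4 lower at the adjusted p alone (DESeq2), against 23.1% and 21.9% of all genes, with a median log2 fold change of 0.19 beside -0.012 over all genes tested, and 14 had an unadjusted p under 0.05. With wortmannin CTSO, a cysteine protease, and IDUA, the iduronidase of glycosaminoglycan breakdown, rose in SW1783, by 0.68 ± 0.088 and 0.92 ± 0.22. In HT29 HGSNAT, a lysosomal acetyltransferase, and IDUA rose by 0.62 ± 0.16 and 0.66 ± 0.14 with wortmannin. All of these genes were chosen after their values were seen.

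Of 7 genes for the sorting of enzymes to the lysosome none was called at the high dose in SW1783, 3 were higher and 1 lower at the adjusted p alone, against the same shares of all genes, and 5 had an unadjusted p under 0.05. Of the 3 cystatins tested, which inhibit cysteine cathepsins, 1 was called higher, against 8.41% of all genes, and 2 were higher at the adjusted p alone, against 23.1%. The called one, CSTB, had 2229.8, 2149 and 2232 normalized counts in vehicle and 3416, 3352 and 3388 at the high dose. Its log2 fold change was 0.62 ± 0.039 (SE; DESeq2 adjusted p = 3.12e-55). CST3, the other higher one, had 1440, 1701 and 1860 in vehicle and 2226, 2178 and 2462 at the high dose.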
